A study of Mus musculus with 16 samples.

Results

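The 10 genes described here are Nfe2l2, which encodes the transcription factor Nrf2, and 9 genes of antioxidant and redox enzymes: Nqo1, Hmox1, Gclc, Gclm, Srxn1, Txnrd1, Cat, Gpx3 and Glrx. They were taken from a list of gene names, matched to array probes by RefSeq accession with 1 probe per gene, the one with the highest mean signal, and they are 10 of the 17771 genes tested. RNA came from HL-1 cells, an immortalised mouse atrial cardiomyocyte line, and was hybridised to 16 single-colour Agilent arrays. Each of 4 labels has 4 arrays: vehicle (PBS), dexamethasone (Dex, a synthetic glucocorticoid) at 100 nM, estradiol (E2) at 10 nM, and both agents at those doses (Dex+E2), all for 6 h. The series design speaks of 4 independent experiments but does not tie an array to one, so p-values measure the spread between these arrays, part of which may be technical.

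Nrf2 is held at a low level by Keap1, an adaptor that presents it to a ubiquitin ligase. When electrophiles or oxidants modify Keap1, Nrf2 accumulates, pairs with a small Maf protein and binds antioxidant response elements in the promoters and enhancers of detoxification genes. Its best known targets make glutathione (Gclc, Gclm), reduce quinones (Nqo1), degrade haem (Hmox1) and keep thioredoxin and peroxiredoxins reduced (Txnrd1, Srxn1), whereas catalase (Cat), the secreted glutathione peroxidase (Gpx3) and glutaredoxin (Glrx) act on the same oxidants or on protein thiols. In heart muscle these enzymes limit damage from mitochondrial hydrogen peroxide.

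RefSeq promoter windows (build GRCm38.p6), which run from 250 bases before to 50 bases after a gene's start, were given for 8 of the 10 genes, in 11 windows. Hmox1 and Gclc are named only. The windows were searched on both strands for the core of the antioxidant response element (TGACNNNGC), for the site of Nrf2 with a small Maf protein (TGANTCAGC), for the palindromic glucocorticoid response element and for its single hexamer (AGAACA). A site of the second pattern with a C at its first N also meets the first pattern, and the hexamer is part of the palindrome. Among all 32851 windows of 300 bases, 12.4% held the first pattern, 1.19% the second, 0.00913% the third and 19.0% the hexamer. The first pattern lay in windows of 4 of these genes (Nfe2l2, Gclm, Srxn1 and Txnrd1), the second in Srxn1 alone of the 8 genes, the palindrome in 0 of the 8, and the hexamer in 5 (Gclm, Txnrd1, Cat, Gpx3 and Glrx).

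The 250 bases upstream are shown for the genes with a match to an antioxidant response element pattern and for Glrx, which had the smallest p of the 10 genes in each comparison of 2 labels. Capitals mark the antioxidant response element core in Nfe2l2 (chr2:75704664-75704913, minus strand), Gclm (chr3:122245307-122245556, plus strand, match on the reverse strand) and the second of the 3 Txnrd1 windows (chr10:82858956-82859205, plus strand, match on the reverse strand). They mark the Nrf2 and small Maf site in Srxn1 (chr2:152105274-152105523, plus strand) and the hexamers, on the reverse strand, in the first of the 2 Glrx windows (chr13:75839635-75839884, plus strand).
Nfe2l2: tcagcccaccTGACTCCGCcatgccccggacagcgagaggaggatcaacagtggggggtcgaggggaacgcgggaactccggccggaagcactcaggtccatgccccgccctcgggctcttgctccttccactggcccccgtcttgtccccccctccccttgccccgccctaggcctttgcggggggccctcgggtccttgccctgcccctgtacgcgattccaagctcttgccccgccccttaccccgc
Gclm: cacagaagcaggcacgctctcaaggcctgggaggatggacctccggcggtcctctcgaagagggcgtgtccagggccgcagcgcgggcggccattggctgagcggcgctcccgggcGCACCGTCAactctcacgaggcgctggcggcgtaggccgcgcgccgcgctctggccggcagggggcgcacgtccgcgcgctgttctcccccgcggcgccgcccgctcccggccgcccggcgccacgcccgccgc
Srxn1: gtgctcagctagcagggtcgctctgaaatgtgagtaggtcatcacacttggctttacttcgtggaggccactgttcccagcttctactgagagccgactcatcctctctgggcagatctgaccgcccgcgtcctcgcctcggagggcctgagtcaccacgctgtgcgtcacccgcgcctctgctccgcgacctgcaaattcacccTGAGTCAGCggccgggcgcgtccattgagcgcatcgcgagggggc
Txnrd1: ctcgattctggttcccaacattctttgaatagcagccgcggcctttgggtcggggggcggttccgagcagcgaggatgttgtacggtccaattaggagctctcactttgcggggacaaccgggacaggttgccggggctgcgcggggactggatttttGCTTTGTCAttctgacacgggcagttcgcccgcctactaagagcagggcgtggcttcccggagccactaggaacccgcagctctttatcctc
Glrx: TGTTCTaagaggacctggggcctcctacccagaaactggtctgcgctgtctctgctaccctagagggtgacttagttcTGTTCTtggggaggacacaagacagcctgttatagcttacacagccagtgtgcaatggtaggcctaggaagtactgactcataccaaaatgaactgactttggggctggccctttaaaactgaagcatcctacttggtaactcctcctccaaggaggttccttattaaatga
Counted from the gene's start, the marked match begins at base -240 in Nfe2l2, -134 in Gclm, -45 in Srxn1 and -92 in Txnrd1, and the Glrx hexamers begin at -250 and -172. These are matches of letters, and no binding was measured.

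A level below is log2 of a probe's processed intensity minus the log2 75th percentile of its array. Probes differ in brightness, so levels are compared between arrays for 1 gene and not between genes. In a bulk RNA sample, fewer cells that express a gene and less of its RNA per cell cannot be told apart. All 10 genes were well above background on 16 of 16 arrays, none of their probes was saturated, and 58.6% to 65.6% of all probes were well above background per array. All 8 of the 8 cardiomyocyte markers examined were well above background on all 16 arrays. Of the markers of other cell types, 4 of 6 fibroblast, 3 of 3 smooth muscle, 1 of 5 endothelial and 1 of 5 macrophage markers were well above background on all 16 arrays. From the same lists, Pecam1, Cdh5, Ptprc, Adgre1, Itgam and Lum were so on 0 arrays, whereas Col1a1, Col3a1, Dcn, Pdgfra, Kdr and Cd68 were so on all 16.

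Per1, a clock gene that glucocorticoids induce, went against the label on 4 arrays, which bears on every comparison of labels. It was high on 8 arrays, at 1.75 to 1.99, and low on 8, at -1.29 to -0.75. The high arrays were vehicle 4, Dex 1, Dex 2, Dex 4, E2 4, Dex+E2 1, Dex+E2 2 and Dex+E2 4. The libraries labelled vehicle 4 and E2 4 were thus high without dexamethasone in the label, and those labelled Dex 3 and Dex+E2 3 were low with it. Results are given with all 16 arrays by label and, for some differences, without these 4. The 4 were picked by a measured level, so in the remaining arrays Per1 follows the label by choice. Adjusted p-values without the 4 do not allow for that choice, which favours genes that vary with Per1. Array slides held 2 labels each, so values within a slide are given for the genes that the results turn on.

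With all 16 arrays, 0 of the 10 genes passed the test between labels in any of the 6 comparisons (each agent and their combination against vehicle, the combination against either agent, and the interaction of Dex with E2). Across the whole array 0 of 17771 genes (0%) did so by limma at an adjusted p under 0.05. At an unadjusted p under 0.05 the shares of all genes were 10.9% for Dex against vehicle (1932 genes), 3.84% for E2 against vehicle (682), 5.57% for Dex+E2 against vehicle (990), 3.19% for Dex+E2 against Dex (567), 4.02% for Dex+E2 against E2 (714) and 3.72% for the interaction (661). Of the 10 genes, Glrx was under that limit in each comparison except the interaction, and Cat in Dex against vehicle. The other 8 were under it in 0 of the 6. Under another background correction (normexp), 23 of 80 differences of the 10 genes, over these 6 comparisons and the 2 of array numbers and slide 1 below, turned sign.

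**Figure D1:**
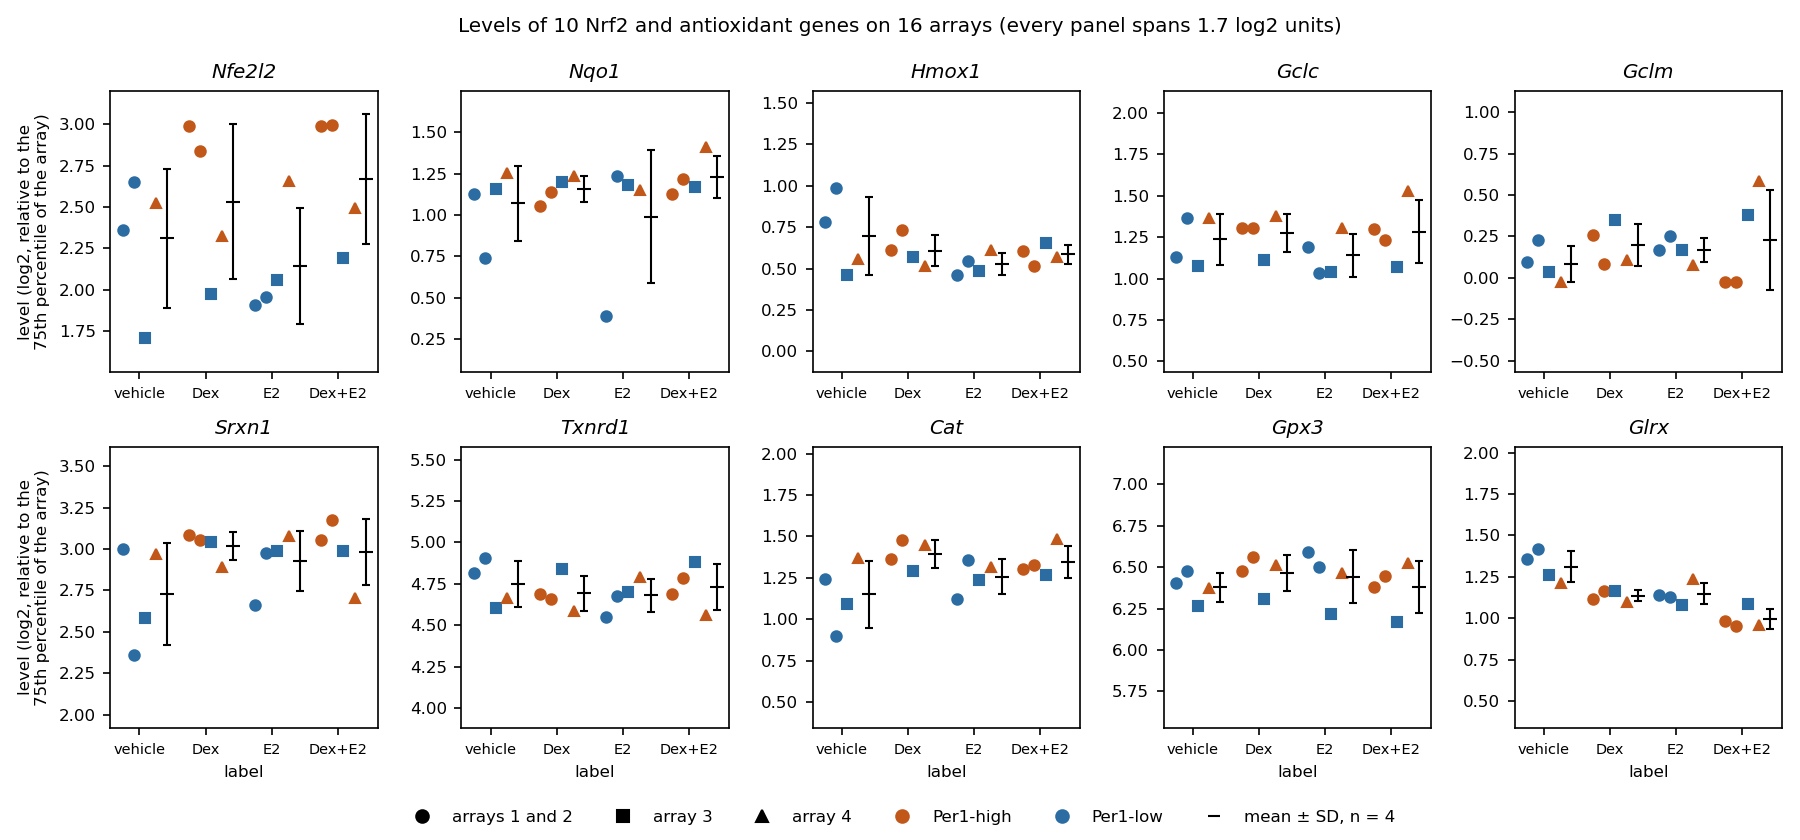
Level (log2, with the array's 75th percentile at 0) of each of the 10 genes on the 16 arrays, by label, with the mean ± SD of 4 arrays as a bar beside the points. Shape marks the array number and colour marks high (orange) or low (blue) Per1. Nfe2l2 has the widest spread, from 1.71 to 2.99, and Glrx steps down from vehicle (mean 1.31) to Dex+E2 (mean 1.00).

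Nfe2l2 (probe A_51_P411271), the regulator itself, varied most over the 16 arrays of the 10 genes, with an SD of 0.42, against 0.11 to 0.24 for the others. On arrays 1, 2, 3 and 4 its level was 2.36, 2.65, 1.71 and 2.52 with vehicle, and 2.99, 2.84, 1.98 and 2.33 with Dex. With E2 it was 1.91, 1.95, 2.06 and 2.66, and with Dex+E2 it was 2.99, 2.99, 2.19 and 2.49. The 4 highest levels were thus those of Dex 1, Dex 2, Dex+E2 1 and Dex+E2 2, while array 3 was the lowest of its label for vehicle, Dex and Dex+E2, and all 4 labels overlapped. The means were 2.31 ± 0.42 (SD, n = 4) with vehicle, 2.53 ± 0.47 with Dex, 2.14 ± 0.35 with E2 and 2.67 ± 0.39 with Dex+E2.

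No difference of Nfe2l2 between labels passed the test. The difference was 0.22 ± 0.26 (SE; adjusted p = 0.758) for Dex minus vehicle, -0.17 ± 0.26 for E2 minus vehicle (adjusted p = 1.0), 0.36 ± 0.26 for Dex+E2 minus vehicle (adjusted p = 0.724) and 0.52 ± 0.26 for Dex+E2 minus E2 (adjusted p = 1.0). Its 95% interval for Dex minus vehicle, -0.33 to 0.78, holds 0 and also the difference between array numbers given below. Without the 4 arrays the corresponding differences were 0.48 ± 0.23, -0.27 ± 0.23, 0.59 ± 0.23 and 0.85 ± 0.23, with adjusted p of 0.291, 0.777, 0.255 and 0.121.

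Within slides the direction of Nfe2l2 varied. On slide 1, where 45 genes (0.253%) and 0 of the 10 were called, both Dex arrays lay above both vehicle arrays by 0.41 ± 0.12 (adjusted p = 0.275), and on slide 3 Dex+E2 arrays 1 and 2 lay above Dex arrays 3 and 4 by 0.84 ± 0.14 (adjusted p = 0.408). On slide 2 E2 differed from vehicle by -0.18 ± 0.28 (adjusted p = 0.857), and on slide 4 Dex+E2 differed from E2 by -0.01 ± 0.23 (adjusted p = 1.0). Slide 3 set 2 Per1-high arrays against 1 low and 1 high array, whereas slide 4 held 1 high and 1 low array of each label.

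Arrays 3 and 4 of a label shared a slide, and in every label Per1 was low on array 3 and high on array 4. This contrast of array numbers is not one of treatments. Nfe2l2 was higher on array 4 in 4 of 4 pairs, by 0.81 with vehicle, 0.35 with Dex, 0.60 with E2 and 0.30 with Dex+E2. The fitted difference was 0.52 ± 0.10 (SE, 8 arrays with label as a block), or 1.43-fold, with an adjusted p of 0.0517, just outside the threshold. It passed the threshold in 5 of 12 alternatives, whose adjusted p ran from 0.000425 to 0.27. Its other probe, A_52_P396436, read 1.67 on vehicle 3 and 2.34 on vehicle 4, 1.78 and 2.21 with Dex, 1.63 and 2.30 with E2, and 1.74 and 2.48 with Dex+E2. The probes of Nfe2l2 thus moved the same way in all 4 pairs, and over the 16 arrays, which share slides and labels, they correlated at r = 0.92.

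**Figure D2:**
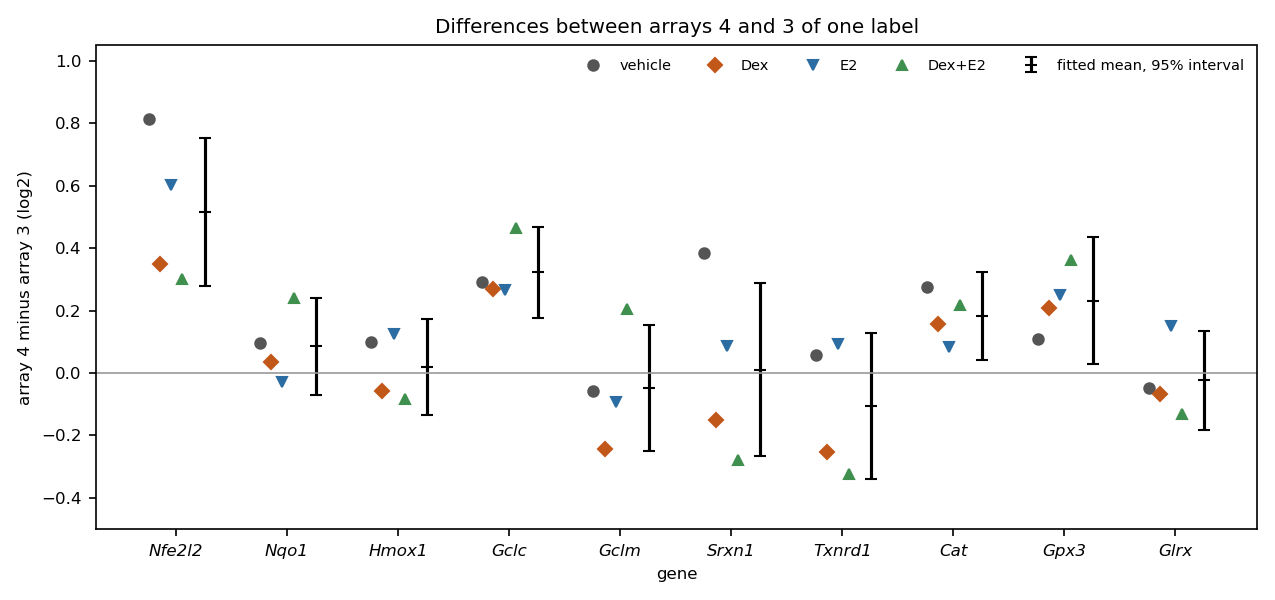
Difference of level (log2) between array 4 and array 3 of each label, 1 point per label, with the fitted mean and its 95% interval (limma, label as a block, n = 4 pairs). All 4 points lie above 0 for Nfe2l2, Gclc, Cat and Gpx3. The points of the other 6 genes fall on both sides of 0.

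Gclc (probe A_51_P365019) and Gclm (probe A_51_P320089) encode the catalytic and the modifier subunit of glutamate-cysteine ligase, the first enzyme of glutathione synthesis. Of the 10 genes, Gclc was the 1 that passed the test between array 4 and array 3. Its levels on arrays 3 and 4 were 1.07 and 1.37 with vehicle, 1.11 and 1.38 with Dex, 1.04 and 1.30 with E2, and 1.07 and 1.53 with Dex+E2. The 4 levels on array 3 thus lay between 1.04 and 1.11, below all 4 on array 4. The fitted difference was 0.32 ± 0.06, or 1.25-fold (adjusted p = 0.0498). In the same contrast 552 of all genes (3.11%) were called, 285 of them higher (1.60%), so 1 call among 10 genes stands beside a background of 3.11%.

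The Gclc call sat just inside the threshold. It held in 5 of 12 alternatives, with adjusted p from 0.00939 to 0.213. It was lost on leaving out the pair labelled vehicle (0.0739), Dex (0.213), E2 (0.165) or Dex+E2 (0.171), while the difference stayed between 0.28 and 0.34. On arrays 1 and 2 Gclc read 1.13 and 1.37 with vehicle, 1.31 and 1.31 with Dex, 1.19 and 1.04 with E2, and 1.30 and 1.24 with Dex+E2. Vehicle 2, which is Per1-low, was thus as high as the array labelled vehicle 4. Differences of Gclc between labels ran from -0.09 ± 0.10 (E2 minus vehicle, adjusted p = 0.996) to 0.14 ± 0.10 (Dex+E2 minus E2, adjusted p = 1.0). Without the 4 arrays, Gclc differed by 0.14 ± 0.10 for Dex minus vehicle, 0.16 ± 0.10 for Dex+E2 minus vehicle and 0.27 ± 0.10 for Dex+E2 minus E2 (adjusted p 0.486, 0.428 and 0.329).

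Gclm did not follow Gclc. Its levels on arrays 1 to 4 were 0.09, 0.23, 0.04 and -0.02 with vehicle, 0.26, 0.08, 0.35 and 0.11 with Dex, 0.17, 0.25, 0.17 and 0.08 with E2, and -0.02, -0.03, 0.38 and 0.58 with Dex+E2. Within Dex+E2, arrays 3 and 4, which lay on slide 4, were above arrays 1 and 2, which lay on slide 3. On array 4 it was lower than on array 3 in 3 of 4 pairs, and the fitted difference was -0.05 ± 0.08 (adjusted p = 0.819). On slide 4 it was 0.36 ± 0.12 higher with Dex+E2 than with E2 (adjusted p = 0.998).

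Nqo1 (probe A_51_P424338), a quinone reductase, read 1.13, 0.74, 1.16 and 1.25 on the vehicle arrays and 1.06, 1.14, 1.20 and 1.23 on the Dex arrays. With E2 it read 0.39, 1.23, 1.18 and 1.15, and with Dex+E2 1.13, 1.22, 1.17 and 1.41. Apart from E2 1 and vehicle 2, its levels lay between 1.06 and 1.41. Its differences between labels ran from -0.08 ± 0.16 (E2 minus vehicle, adjusted p = 1.0) to 0.24 ± 0.16 (Dex+E2 minus E2, adjusted p = 1.0).

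Hmox1 (probe A_51_P263965), the inducible haem oxygenase, was highest on vehicle 1 and 2, at 0.78 and 0.99, while vehicle 3 and 4 read 0.46 and 0.56. The other 12 arrays lay between 0.46 and 0.73. Its differences from vehicle were -0.09 ± 0.10 with Dex, -0.17 ± 0.10 with E2 and -0.11 ± 0.10 with Dex+E2 (adjusted p 0.739, 0.979 and 0.745).

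Srxn1 (probe A_52_P297032), the sulfiredoxin that repairs over-oxidised peroxiredoxins, read 3.00, 2.36, 2.59 and 2.97 with vehicle and 3.09, 3.05, 3.04 and 2.89 with Dex. With E2 it read 2.66, 2.98, 2.99 and 3.08, and with Dex+E2 3.06, 3.18, 2.99 and 2.71. On this probe the low levels were those of vehicle 2 and 3, E2 1 and Dex+E2 4, and the 4 labels overlapped. On the other probes of Srxn1, A_52_P593200 and A_51_P330125, vehicle 2 (-1.47 and -1.52) and vehicle 3 (-1.23 and -1.28) were again the lowest. There E2 1 (-0.84 and -0.94) and Dex+E2 4 (-0.84 and -0.99) did not stand apart from the remaining arrays. The difference was 0.29 ± 0.14 for Dex minus vehicle (adjusted p = 0.462) and 0.25 ± 0.14 for Dex+E2 minus vehicle (adjusted p = 0.715). Array 4 minus array 3 was 0.01 ± 0.11 (adjusted p = 0.971), with pairs from -0.28 to 0.39. The lowest pair, that of Dex+E2, went the other way on A_52_P593200, at -0.96 on array 3 and -0.84 on array 4.

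Txnrd1 (probe A_51_P320614), the cytosolic thioredoxin reductase, had the narrowest spread of the 10 genes, 4.55 to 4.91 with an SD of 0.11. The 4 label means lay between 4.68 and 4.75. With the main processing, the lowest adjusted p of its 6 label differences was 0.821, for Dex minus vehicle (-0.06 ± 0.09). Its values depended on the processing. Over its alternatives, E2 minus vehicle ran from -0.68 to -0.02 (limma, lowest adjusted p 0.0701) and Dex+E2 minus vehicle from -0.36 to 0.04. On slide 1, where vehicle read 4.82 and 4.91 and Dex 4.69 and 4.66, the difference was -0.19 ± 0.06 (adjusted p = 0.282). With normexp it was -0.55 (adjusted p = 0.764).

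Cat (probe A_52_P679769), the peroxisomal catalase that splits hydrogen peroxide, read 1.24, 0.90, 1.09 and 1.37 on the vehicle arrays and 1.36, 1.48, 1.29 and 1.45 on the Dex arrays. With E2 it read 1.12, 1.36, 1.23 and 1.32, and with Dex+E2 1.30, 1.33, 1.27 and 1.49. Of the vehicle arrays only vehicle 4 reached the range of the Dex arrays. The difference between Dex and vehicle was 0.24 ± 0.09, or 1.18-fold (unadjusted p = 0.0194, adjusted p = 0.451), and without the 4 arrays it was 0.35 ± 0.10 (adjusted p = 0.1). Array 4 exceeded array 3 in 4 of 4 pairs, by 0.08 to 0.27, with a fitted difference of 0.18 ± 0.06 (adjusted p = 0.189).

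Gpx3 (probe A_51_P292008), the secreted glutathione peroxidase, was lowest on array 3 of every label, at 6.26 with vehicle, 6.31 with Dex, 6.21 with E2 and 6.17 with Dex+E2. The other 12 arrays lay between 6.37 and 6.59, so array 3 did not overlap with the rest in these 16 arrays. This split was made after the levels were seen, and the share of all genes that show it was not computed. Array 4 exceeded array 3 by 0.11 to 0.36 in the 4 pairs, with a fitted difference of 0.23 ± 0.08 (adjusted p = 0.249). Its differences between pairs of labels were within 0.09 of 0, and the interaction was -0.15 ± 0.13 (adjusted p = 0.999). With normexp, E2 minus vehicle was -0.62, Dex+E2 minus vehicle -0.44 and Dex+E2 minus Dex -0.46 for this gene. Among all genes, 9.66% were higher on array 4 in 4 of 4 pairs (1716 genes), against Nfe2l2, Gclc, Cat and Gpx3 among the 10.

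Glrx (probe A_51_P210395), the cytosolic glutaredoxin that removes glutathione from protein thiols, had the smallest unadjusted p of the 10 genes in all 5 comparisons of 2 labels. With vehicle its level was 1.36, 1.42, 1.26 and 1.21 on arrays 1 to 4, and with Dex 1.12, 1.16, 1.16 and 1.10. With E2 it was 1.14, 1.13, 1.08 and 1.23, and with Dex+E2 0.98, 0.96, 1.09 and 0.96. Vehicle did not overlap with Dex or with Dex+E2, and Dex+E2 did not overlap with Dex. E2 overlapped with the 3 others, through E2 4 for vehicle and E2 3 for Dex+E2. In order, the means were 1.31 ± 0.09 (SD, n = 4) with vehicle, 1.15 ± 0.06 with E2, 1.14 ± 0.03 with Dex and 1.00 ± 0.06 with Dex+E2, and E2 and Dex did not differ beyond their spread.

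The difference between Dex+E2 and vehicle was -0.32 ± 0.06 (SE), or 1.25-fold lower, with an unadjusted p of 9.08e-05 and an adjusted p of 0.715 over the 17771 genes. Over its alternatives the difference ran from -0.54 to -0.28, and the adjusted p was between 0.00955 and 0.996. The lowest of these came from leaving out the 4 arrays, where Dex+E2 was -0.38 ± 0.07 below vehicle (limma, adjusted p = 0.00955) and Glrx was 1 of the 459 genes called (2.58%), 196 of them lower (1.10%). That p does not allow for the choice of the 4 arrays by their Per1 level. Among all genes, the ranges of Dex+E2 and vehicle did not overlap for 1.85% (329 genes), those of Dex and vehicle for 4.64% (825) and those of Dex+E2 and Dex for 3.09% (549).

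Glrx was 0.18 ± 0.06 lower with Dex than with vehicle (unadjusted p = 0.00981, adjusted p = 0.451) and 0.17 ± 0.06 lower with E2 (unadjusted p = 0.0147, adjusted p = 0.979). Against Dex and against E2, Dex+E2 read -0.14 ± 0.06 and -0.15 ± 0.06 (unadjusted p 0.0344 and 0.0233, adjusted p 1.0 for both). The interaction was 0.03 ± 0.08 (adjusted p = 0.999), with an interval of -0.15 to 0.21. These comparisons share arrays. Without the 4 arrays, Glrx differed by -0.22 ± 0.07 for Dex minus vehicle and -0.23 ± 0.07 for E2 minus vehicle (adjusted p 0.112 and 0.713). Over its alternatives, normexp moved Glrx the farthest in E2 minus vehicle (-0.49) and Dex+E2 minus Dex (-0.34), and it brought Dex+E2 minus E2 to -0.05, all below 0. Within slides, which hold 2 arrays of each label, the differences were -0.25 ± 0.08 for Dex minus vehicle, -0.10 ± 0.08 for E2 minus vehicle, -0.16 ± 0.08 for Dex+E2 minus Dex and -0.14 ± 0.12 for Dex+E2 minus E2 (adjusted p 0.275, 0.728, 0.423 and 0.998). Between array 4 and array 3, where Per1 changed in every pair, Glrx differed by -0.02 ± 0.07 (adjusted p = 0.888).

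**Figure D3:**
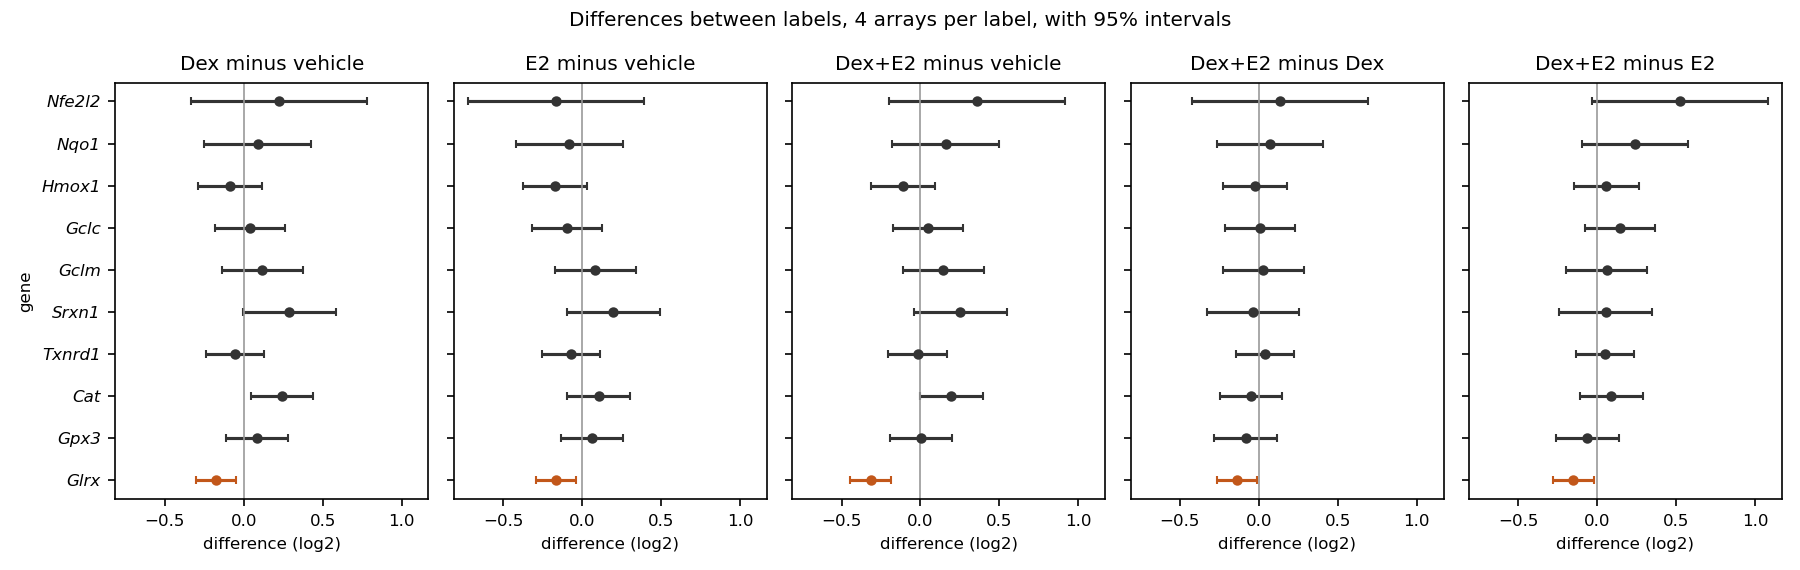
Fitted difference of level (log2) between labels with its 95% interval, for the 10 genes in 5 comparisons of 4 against 4 arrays (limma, all 16 arrays); the grey line marks 0 and Glrx is drawn in orange. The Glrx interval lies below 0 in all 5 panels, from -0.44 to -0.19 for Dex+E2 minus vehicle, although 0 genes passed the adjusted test. Nfe2l2 has the widest intervals.

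Between the Per1-high and the Per1-low arrays, which were split by a measured level and are compared with no test, 0 of the 10 genes had ranges that did not overlap. Among all 17771 genes 726 (4.09%) had such ranges, 359 of them higher (2.02%) and 367 lower (2.07%). Nfe2l2 came nearest in size. It lay between 2.33 and 2.99 (median 2.75) on the 8 high arrays and between 1.71 and 2.65 (median 2.02) on the 8 low arrays, a difference of medians of 0.73, and 2.03% of all genes had a difference at least that large. The overlap came from vehicle 1 and vehicle 2, which read 2.36 and 2.65 among the low arrays.

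Gclc lay between 1.24 and 1.53 on the high arrays and between 1.04 and 1.37 on the low arrays, a difference of medians of 0.21, which 21.1% of all genes matched or exceeded. Its overlap came from vehicle 2 alone. Cat lay between 1.30 and 1.49 against 0.90 and 1.36, a difference of 0.13, which 38.7% of all genes matched or exceeded. It overlapped through E2 2 alone. Without vehicle 2 the ranges of Gclc separated, and without E2 2 those of Cat did, which made 1 of the 10 genes in either case. This follows from leaving out the only array that overlapped. The share of all genes that separate on leaving out 1 array was not computed. Gpx3 differed by 0.12 and Gclm by -0.12, both with ranges that overlapped on 4 or more arrays.

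The remaining 5 genes differed by -0.08 (Txnrd1) to 0.07 (Srxn1). In all, 7 of the 10 differences of medians were above 0, with a median of 0.05, whereas 45.8% of all genes were above 0, with a median of -0.01. The summed level of the 5 endothelial markers moved with Per1, at 0.83 to 1.20 on the high arrays against 0.07 to 0.69 on the low arrays. Kdr was the 1 of these markers well above background on every array, and Pecam1 and Cdh5 were so on 0. Their part in the values of the 10 genes was not tested. The summed levels of the cardiomyocyte, fibroblast, smooth muscle and macrophage markers overlapped between the Per1-high and Per1-low arrays.

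The patterns most like those of the 3 genes with the largest SD were sought among 12826 named genes over the 16 arrays, which share slides and labels. Nfe2l2 was nearest to Strip2 (r = 0.97), Por (r = 0.97) and Nfil3 (r = 0.96). Nqo1 was nearest to Tpbg (r = 0.88), Slc23a2 (r = 0.85) and Gm21293 (r = 0.84), and Srxn1 to 2310022B05Rik (r = 0.96), Wars (r = 0.94) and Nmnat3 (r = 0.94). These correlations describe the 16 arrays, among which Nfe2l2 differs between Per1-high and Per1-low ones and Nqo1 has 1 low array.

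The wider pathway was followed in 94 other genes in 5 lists, of which 86 passed the filter on dim probes. The lists were the Nrf2 regulators (12 of 12 tested), glutathione genes (22 of 28), thioredoxin, peroxiredoxin and glutaredoxin genes (19 of 19), superoxide, iron and haem genes (11 of 11), and genes of NADPH supply and detoxification (22 of 24). With all 16 arrays, 0 of the 86 passed the limma test between labels in any of the 6 comparisons. At an unadjusted p under 0.05, 4 of the 86 were higher and 4 lower with Dex than with vehicle, beside 2.08% and 8.79% of all genes. With E2 against vehicle 0 were under that limit. With Dex+E2 against vehicle 2 were higher and 0 lower, beside 2.04% and 3.53% of all genes. Against vehicle, their median difference was 0.01 with Dex (-0.03 over all genes), -0.01 with E2 (-0.02 over all genes) and -0.03 with the combination (-0.02 over all genes).

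Between array 4 and array 3, 1 of the 86 was called higher and 1 lower, beside 3.11% of all genes called in either direction. Sesn1, a sestrin that takes part in the response to oxidants and restrains mTORC1, was higher on array 4 by 0.69 ± 0.08 (adjusted p = 0.0123). Bach2, a repressor that can occupy Maf recognition sites related to the antioxidant response element, was lower by 0.88 on the log2 scale (SE 0.09, adjusted p = 0.00623). In both genes all 4 pairs went the same way, as they did in 25.3% of all genes. Their levels on the Per1-high and Per1-low arrays did not overlap. Both genes were named for passing the test on arrays 3 and 4, which are also part of the Per1 split, so neither observation is separate support. Sesn1 lay between 2.62 and 2.98 on the high arrays and between 2.05 and 2.32 on the low ones. Bach2 lay between -3.39 and -2.78 against -2.63 and -2.10.

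The third gene of the 86 without overlap was Ugdh, an enzyme that makes UDP-glucuronic acid for conjugation, at 3.33 to 3.76 on the high arrays and 3.85 to 4.24 on the low ones. In all, 1 of the 86 was higher and 2 were lower without overlap, beside 2.02% and 2.07% of all genes, so the lists did not stand out. Without the 4 arrays, Ugdh was lower with Dex+E2 than with vehicle by 0.56 on the log2 scale (SE 0.10, adjusted p = 0.0115) and lower than with E2 by 0.64 (SE 0.10, adjusted p = 0.00549). Sesn1 was then higher with Dex than with vehicle by 0.58 ± 0.08 (adjusted p = 0.00316), and Msrb1, a methionine sulfoxide reductase, by 0.64 ± 0.15 (adjusted p = 0.0458). With Dex+E2, Sesn1 was higher than with vehicle by 0.48 ± 0.08 (adjusted p = 0.00928) and than with E2 by 0.49 ± 0.08 (adjusted p = 0.00855). Bach2 was lower with Dex than with vehicle by 0.97 on the log2 scale (SE 0.17, adjusted p = 0.0122). Its difference for Dex+E2 minus vehicle was -0.77 ± 0.17 (adjusted p = 0.0387). In that setting 432 genes (2.43%) were called for Dex against vehicle, 2 higher and 1 lower of the 86 and 0 of the 10. For Dex+E2 against vehicle 459 genes (2.58%) were called, 1 higher and 2 lower of the 86. For Dex+E2 against E2 it was 343 (1.93%), 1 higher and 1 lower of the 86. These p-values do not allow for the choice of arrays by Per1, whose high and low arrays Sesn1, Bach2 and Ugdh separated. Keap1, Cul3, Bach1 and the small Maf genes Mafg, Mafk and Maff were among the regulators that did not pass the test in any of these comparisons.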

How the data were processed

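The 16 scanner files hold, per the file headers, a background-subtracted processed intensity for each spot on a linear scale, made by the authors with Agilent Feature Extraction 12, per the submitters' processing notes. The deposited series table holds log2 values of the same arrays (median 4.698 in each column, and each column correlated best with its own array). It served as an alternative, with a normalization not given in the sources used here. Control and outlier spots were left out, spots of a probe averaged, and log2 of the intensity taken relative to the 75th percentile of each array (402 to 557 intensity units). A probe was kept if the 4 arrays of some label all had it well above background (24453 probes), and the brightest probe of a gene used (17771 genes). Accessions were named through RefSeq's table for GRCm38.p6 (28223 of 41174 probes matched).

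Labels were compared with limma 3.58.1 in R 4.3.3 (lmFit, eBayes with a trend, two-sided) on all 16 arrays, with Benjamini-Hochberg adjustment over all genes and a threshold of 0.05. Arrays 4 and 3 were compared with label as a block, and Dex with vehicle within slide 1. The number of arrays limits the precision. The procedure was tested on simulated data. The 10 genes, the wider lists, the markers and the comparisons of array numbers were chosen with earlier results of these data known. All 10 genes are named throughout, and a gene of the wider lists is named where it passed the test or, in the Per1 description, where its ranges did not overlap. Pairing was checked through the array numbers that labels share: correlations of deviations between arrays of one number ran from -0.16 to 0.46, and 13 of 24 were above 0.1. Of the 16 arrays, 10 were closest on average to arrays of their own number. The numbers were not taken to pair the arrays, although part of the arrays resembled others of their number, and a fit with the number as a block is given below. The files hold no mean signal column, so the normexp alternative (offset 50) used the median signal. That alternative, the values within a slide and those without the 4 arrays were added after the data were seen.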

Additional observations from a re-analysis of the deposited data

Results flagged for a closer look

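Nqo1 read 0.39 on E2 1, far below the 1.15 to 1.23 of the other 3 E2 arrays: the gap to its neighbour was 0.903 of the range of the 4 arrays, above Dixon's critical value at the 95% level. It was 1 of 40 combinations of gene and label examined, and chance alone gives about 1 in 20. E2 1 was also the lowest E2 array for Nfe2l2 (1.91), Hmox1 (0.46), Srxn1 (2.66), Txnrd1 (4.55) and Cat (1.12), and the highest for Gpx3 (6.59). For Nfe2l2 and Hmox1 the next E2 arrays were near, at 1.95 and 0.49. On the other probes of Srxn1, E2 3 (-0.91 and -1.04) was below E2 1 (-0.84 and -0.94). The share of all genes for which E2 1 was the lowest E2 array was not computed.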

How the results depend on the processing

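Over 8 comparisons, 87 of 1360 recomputed differences of the 10 genes changed sign. Of the 185 recomputed values of the 13 differences at an unadjusted p under 0.05, 0 did. These 13 were picked by a small p in the same arrays that the alternatives reuse, so their kept sign is not separate support. Scalings moved the median of all genes by up to 0.12 on the log2 scale (normexp). Counts of called genes over the whole array moved as follows. Without the 4 arrays on which Per1 went against the label, 432 genes were called for Dex against vehicle, 459 for Dex+E2 against vehicle and 343 for Dex+E2 against E2, in place of 0. Within slide 1 the count for Dex against vehicle was 45, and without a trend that for E2 against vehicle was 1. For array 4 minus array 3, in place of 552, it was 237 without the filter on dim probes, 359 without a trend, 982 without the block, 267 with all 16 arrays, and 153 to 565 on leaving out the pair of 1 label. Within slide 1 (45 genes) it was 80 with normexp, 9 without the filter, 17 with the mean over probes, 1 without a trend, and 0 to 6675 on leaving out 1 array: 6675 without vehicle 1, 1519 without vehicle 2 and 0 without Dex 1 or Dex 2, each with a lone array assumed to vary like the others. With the replicate number as a replicate block, 0 genes were called in all 6 label comparisons, and Glrx for Dex+E2 minus vehicle stayed at -0.32 (adjusted p = 0.425). In the Per1 description, 0 to 1 of the 10 genes separated on leaving out 1 array, and the share of all genes that did so was not computed.

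With normexp, 23 of 80 differences turned sign. In Dex minus vehicle this was Gclc (-0.0045). In E2 minus vehicle they were Cat (-0.26), Gpx3 (-0.62) and Srxn1 (-0.34). In Dex+E2 minus vehicle they were Cat (-0.12), Gclc (-0.20), Gpx3 (-0.44), Nqo1 (-0.0544) and Srxn1 (-0.0306). In Dex+E2 minus Dex they were Gclc (-0.19), Gclm (-0.0949), Nfe2l2 (-0.14), Nqo1 (-0.12) and Txnrd1 (-0.26). In Dex+E2 minus E2 it was Gpx3 (0.18), and in the interaction Gpx3 (0.16) and Srxn1 (0.0667). In array 4 minus array 3 they were Glrx (0.0532) and Txnrd1 (0.0168), and in slide 1 Gclc (-0.13), Gclm (-0.0091), Gpx3 (-0.28) and Nqo1 (-0.0117).

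With slide as a block, the turned values were Nfe2l2 in E2 minus vehicle (0.18), Nqo1 in Dex+E2 minus vehicle (-0.0769), Gclm (-0.0517), Gpx3 (0.042), Hmox1 (0.0782) and Nqo1 (-0.14) in Dex+E2 minus Dex, and Hmox1 (-0.0010), Srxn1 (-0.0165) and Txnrd1 (-0.0541) in Dex+E2 minus E2. Within slide 3 they were Gclm (-0.25), Gpx3 (0.0034), Hmox1 (0.0164), Nqo1 (-0.0445) and Srxn1 (0.15) in Dex+E2 minus Dex. Within slide 4 they were Gpx3 (0.0073), Nfe2l2 (-0.0137), Srxn1 (-0.19) and Txnrd1 (-0.0241) in Dex+E2 minus E2, and without the 4 arrays Gclm (-0.0195) and Gpx3 (0.0163) there.

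On leaving out 1 array, the ranges that crossed 0 were as follows. In Dex minus vehicle, Gclc ran from -0.0147 to 0.0943, Hmox1 from -0.17 to 0.0086 and Nqo1 from -0.0228 to 0.15. In E2 minus vehicle, Nqo1 ran from -0.19 to 0.12. In Dex+E2 minus vehicle, Gclc ran from -0.0351 to 0.12, Gpx3 from -0.0474 to 0.0733 and Txnrd1 from -0.0704 to 0.0371. In Dex+E2 minus Dex, Gclc ran from -0.0742 to 0.0803, Gclm from -0.0909 to 0.11, Hmox1 from -0.0547 to 0.0185, Nfe2l2 from -0.0501 to 0.29, Srxn1 from -0.10 to 0.0547 and Txnrd1 from -0.0138 to 0.0937. In Dex+E2 minus E2, Gclm ran from -0.0577 to 0.14, Gpx3 from -0.14 to 0.0092, Srxn1 from -0.0331 to 0.15 and Txnrd1 from -0.0022 to 0.11. In the interaction, Gclm ran from -0.17 to 0.0285, Glrx from -0.0093 to 0.0588 and Nqo1 from -0.0470 to 0.26. In slide 1, Gclc ran from -0.0625 to 0.17, Gclm from -0.0779 to 0.0992 and Nqo1 from -0.0304 to 0.36. For array 4 minus array 3, where both arrays of 1 label were left out, Gclm ran from -0.13 to 0.0182, Glrx from -0.0817 to 0.0125, Hmox1 from -0.0145 to 0.0559 and Srxn1 from -0.11 to 0.11. The cause of these changes was not tested.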

Other observations

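1 array, vehicle 2, stood at the ends of the range for several of the 10 genes, in both directions. It was singled out after the levels were seen. The share of all genes for which vehicle 2 is highest or lowest was not computed, so this is not a trait of these genes. Over the 16 arrays vehicle 2 was the lowest for Srxn1 (2.36) and Cat (0.90) and the highest for Hmox1 (0.99), Txnrd1 (4.91) and Glrx (1.42). Among the vehicle arrays it was also the lowest for Nqo1 (0.74), and the highest for Nfe2l2 (2.65), Gclm (0.23), Gclc (1.37) and Gpx3 (6.47). Its Gclc level and that of vehicle 4 were both 1.37 to 2 decimals.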
